A study of Caenorhabditis elegans with 2 samples.

Results

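The regions described here are the listed CEH-58 ChIP-seq peaks whose summit, the position of highest enrichment, lay in a promoter window of a protein-coding gene of Caenorhabditis elegans. Such a window began 1000 bp upstream of an annotated protein-coding transcript start and ended 200 bp downstream of it, and summits within 200 bp of a tRNA, snoRNA or snRNA gene were left out. Of 809 listed peaks, 247 had their summit in such a window, 32 of these were near an RNA gene, and 215 remained (26.6%, interval 23.6 to 29.8). They are called promoter peaks below. The same rule kept 26.7% of the 105945 candidate peaks between replicates, which had not been cut at a threshold. No signal value entered the choice of promoter peaks beyond the authors' own thresholds. These gave the conservative list of peaks reproducible between replicates and the larger optimal list. The conservative list was not wholly within the optimal one. Identical ends in both lists were found for 403 of the 483 conservative peaks, and 96 of the conservative promoter peaks overlapped an optimal peak. Of 326 peaks in the optimal list alone, 94 were promoter peaks (28.8%, interval 24 to 34.1), and the others came from the 483 conservative peaks, of which they were 25.1% (interval 21.2 to 29.2). The other listed peaks comprised 473 outside the windows and away from RNA genes, and those near RNA genes, of which 93 were conservative and 28 in the optimal list alone.

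The series holds 1 group of 2 biological replicates and no second condition. Both were whole young adults, 65 hours old, synchronised as starved L1 larvae, of strain OP808 (wgIs808; unc-119 (tm4063)). The animals carried ceh-58 tagged with TY1, EGFP and 3xFLAG on an integrated transgene with unc-119(+), and the tagged protein was immunoprecipitated with an anti-GFP antibody. Whole animals give a signal summed over all tissues, so few cells with strong binding and many cells with weak binding cannot be told apart, and all animals were of 1 transgenic strain. With 1 group no test between conditions could be made, and the values below are descriptions with intervals for counting error only (exact Clopper-Pearson, 95%).

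Homeodomain proteins such as CEH-58 are transcription factors that commonly recognise short AT-rich sites, often with a TAAT core. In C. elegans, promoters are compact, neighbouring genes often share 1 intergenic region when they point away from each other (head to head), and genes in operons are transcribed together from 1 promoter. Many annotated starts are trans-splice sites rather than the point where RNA polymerase began, so a distance to a start is a distance to the annotated 5′ end of the RNA.

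Sequences around strong promoter peaks in unique sequence are shown first, because several of them share a word that was not among the motifs listed for this report. They were read from RefSeq's ce11 (WBcel235) assembly, plus strand, 5′ to 3′, from 60 bp before to 60 bp after the summit, without any part annotated as an untranslated region. The peaks of wwp-1, F46F11.7 and rla-1, in unique sequence and without the word, also had a higher signal than that of Y43B11AR.3 and are not shown. Of the 8 other strongest in unique sequence, 3 held the word, and 2 without it (D2096.7 and kel-3) had too little sequence left and are named only. The rpi-2 and Y43B11AR.3 lines are coding sequence of those genes. The rpi-2 line begins after its summit (IV:1711277) and also lacks the bases before the gene's start (IV:1711262). Capitals mark the listed motifs and the 8-base word AACACGCT, on either strand (AGCGTGTT on the other). The listed motifs are marked up to 60 bp from the summit but were counted only within 50 bp. Those at the ends of lines, such as TTAATTAA at cox-5A, are therefore not in the counts below. The first 6 lines are conservative peaks in order of signal, at III:3867519-3867639, II:5661724-5661844, IV:1711279-1711337, III:10759201-10759306, IV:7083460-7083580 and IV:654894-655014.
rpl-3: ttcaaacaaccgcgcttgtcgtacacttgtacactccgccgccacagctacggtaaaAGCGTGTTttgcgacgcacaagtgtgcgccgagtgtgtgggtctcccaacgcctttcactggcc
ift-43: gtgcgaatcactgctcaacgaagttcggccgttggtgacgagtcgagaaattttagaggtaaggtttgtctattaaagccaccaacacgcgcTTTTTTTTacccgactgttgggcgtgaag
rpi-2: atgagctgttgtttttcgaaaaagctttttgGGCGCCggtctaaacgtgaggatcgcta
K01G5.10 and tasp-1: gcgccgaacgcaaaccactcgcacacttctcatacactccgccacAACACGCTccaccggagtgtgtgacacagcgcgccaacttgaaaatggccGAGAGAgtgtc
Y43B11AR.3: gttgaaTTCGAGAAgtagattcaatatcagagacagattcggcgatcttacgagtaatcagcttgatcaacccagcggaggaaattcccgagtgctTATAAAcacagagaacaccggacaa
K11H12.8 and rpl-15: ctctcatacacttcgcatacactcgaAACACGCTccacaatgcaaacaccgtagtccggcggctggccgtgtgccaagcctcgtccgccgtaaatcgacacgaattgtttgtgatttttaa

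Further peaks with the same word, shown because they share it, were those of cdc-48.1 (II:10563513-10563633), which encodes a p97 ATPase, of cox-5A (III:12905114-12905234), a cytochrome c oxidase subunit, and of the ribosomal protein gene rpl-35 (III:7854604-7854724). The last line is the peak between F44E5.4 and F44E5.5, a head-to-head pair of Hsp70-family genes (II:11759400-11759520), which had the second highest signal of all promoter peaks and lay in sequence that was 94.7% unique.
cdc-48.1: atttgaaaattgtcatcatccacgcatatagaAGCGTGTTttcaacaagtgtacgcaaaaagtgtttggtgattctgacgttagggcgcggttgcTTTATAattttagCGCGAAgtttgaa
cox-5A: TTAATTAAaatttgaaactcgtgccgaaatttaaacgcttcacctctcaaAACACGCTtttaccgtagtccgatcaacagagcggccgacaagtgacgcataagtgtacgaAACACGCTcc
rpl-35: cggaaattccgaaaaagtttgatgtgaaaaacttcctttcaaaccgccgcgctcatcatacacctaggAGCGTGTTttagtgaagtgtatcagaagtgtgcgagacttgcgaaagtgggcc
F44E5.4 and F44E5.5: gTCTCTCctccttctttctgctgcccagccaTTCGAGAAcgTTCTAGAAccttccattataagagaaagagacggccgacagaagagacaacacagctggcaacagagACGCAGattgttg

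AACACGCT lay within 60 bp of the summit at 7 of the 215 promoter peaks (3.26%), those of rpl-3, K01G5.10 and tasp-1, K11H12.8 and rpl-15, cdc-48.1, Y39B6A.43, cox-5A and rpl-35. It lay at 0 of the 473 other listed peaks away from RNA genes, which allows a share of up to 0.634%, at 1 of those near RNA genes, and in 0.205% of promoter windows of the same length, or 0.248% of windows weighted to the same GC content. All 7 were in unique sequence, 5 were conservative peaks and 3 belonged to cytosolic ribosomal protein genes. The word was picked after the sequences had been seen, from 78 words of 8 bases that occurred at 7 or more promoter peaks, as the first in order of excess over windows of equal GC content whose carriers all lay in unique sequence. Its excess was not tested. The next such word, ACTCGTGC, lay at 7 promoter peaks, 1 other listed peak and 0.115% of windows (0.272% at the same GC content), and shared only the cox-5A peak with AACACGCT. Higher in the order stood AGGCCCCA, at 8 promoter peaks that included eel-1, rps-24 and both peaks of enu-3.3 and mzt-1, none of them in fully unique sequence. TTCTAGAA, a palindrome made of inverted heat shock element units, lay at 9 promoter peaks (4.19%), 14 other listed peaks (2.96%) and 0.8% of windows (0.445% at the same GC content). Its promoter carriers included F44E5.4 and F44E5.5, and bag-1, a Hsp70 co-chaperone gene, but only 3 of the 9 lay in fully unique sequence.

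The 15 motifs listed for this report were searched within 50 bp of the summit on both strands, overlaps between motifs were allowed, and their shares were not tested. TAATTA, the core that many homeodomains bind, was present at 9 promoter peaks (4.19%, interval 1.93 to 7.8), at 1.69% of the other listed peaks and in 5.09% of promoter windows, or 1.86% at the same GC content. CAATTA was at 3.72% of promoter peaks, 5.71% of other listed peaks, 8.46% of windows and 4.28% of windows at the same GC content. CTGCGT was at 20 promoter peaks (9.3%, interval 5.78 to 14), 4.44% of other listed peaks, 2.18% of windows and 4.69% of windows at the same GC content. The 3′ splice site word TTTCAG was at 38 promoter peaks (17.7%, interval 12.8 to 23.4), 9.51% of other listed peaks and 19.8% of windows, but 12.9% of windows at the same GC content. TTCNNGAA was at 8.37% of promoter peaks, 8.46% of other listed peaks, 6.87% of windows and 4.93% of windows at the same GC content. GAGAGA was at 11.2% of promoter peaks, 7.61% of other listed peaks, 5.96% of windows and 9.6% of windows at the same GC content. Runs of A, as AAAAAA, were at 16.7% of promoter peaks, 13.3% of other listed peaks and 41.8% of windows, but 19.3% of windows at the same GC content.

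Promoter peaks were richer in GC than promoter windows and about as rich as the other listed peaks. GC content over the 101 bases around the summit was 47.3% ± 9.37 (SD, n = 215), against 47.0% ± 9 at the 473 other listed peaks and 35.2% ± 8.45 in promoter windows, and 190 of the 215 exceeded the window mean. Upstream summits (47.4%) and downstream summits (47.0%) had nearly the same GC content, whereas window positions had 34.6% upstream and 38.1% downstream. The part of GC content in the peaks was not tested. Soft-masked repeats made up 20.3% of bases around promoter peaks, 22.4% around other listed peaks and 34.1% in windows. Every 31-mer within 100 bp of the summit occurred once in the genome for 172 promoter peaks (80%, interval 74 to 85.1), against 311 of the 473 other listed peaks (65.8%, interval 61.3 to 70). For 15 promoter peaks (6.98%) less than 50% of the 31-mers were unique, against 75 other listed peaks (15.9%). For those the gene named is uncertain, since the reads could come from another copy.

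Promoter peaks lay close to the annotated start more often than window positions did. The median summit was 207 bp upstream of the nearest start (interval 287 to 126 bp upstream), with quartiles at -538 and 24 bp, against a median of -341 bp for window positions and -311 bp for the candidate peaks between replicates that the same rule keeps. Summits within 100 bp of a start numbered 64 (29.8%, interval 23.7 to 36.4), against 19.8% of window positions and 21.9% of those candidates. The first 100 bp downstream of the start held 39 promoter peaks (18.1%), against 9.92% of window positions and 12.2% of candidates. In all, 154 summits (71.6%, interval 65.1 to 77.5) were upstream and 61 downstream, whereas 80.6% of window positions and 76.6% of candidates were upstream. The medians of conservative promoter peaks (-209 bp) and of those in the optimal list alone (-206 bp) were alike.

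**Figure D1:**
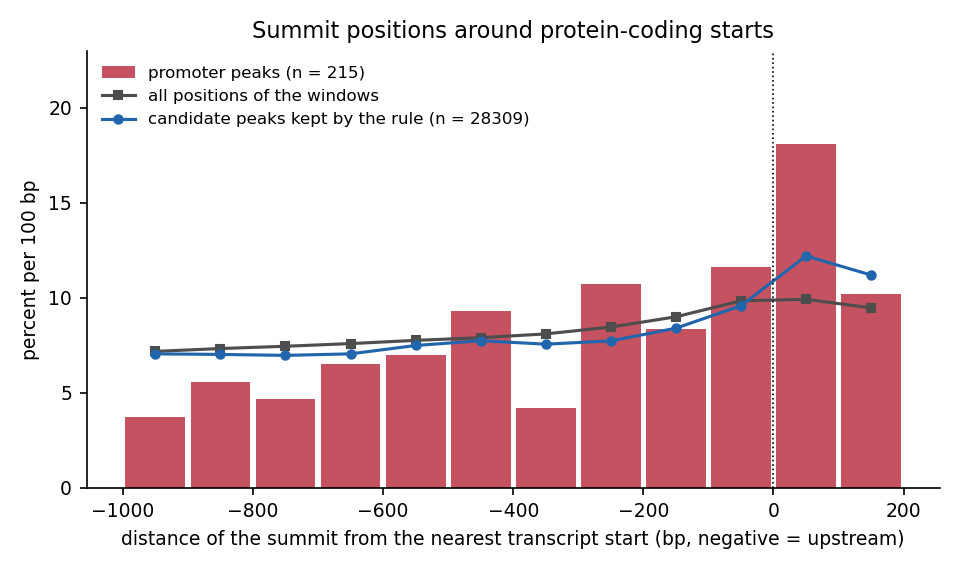
Distance of the summit from the nearest protein-coding transcript start (x axis, bp, negative upstream) and the percent per 100 bp (y axis) for the 215 promoter peaks (bars), all positions of the promoter windows (grey squares) and the candidate peaks kept by the rule (blue circles). The bar just downstream of the start, with 39 peaks or 18.1%, stands above both lines, and the bars from -1000 to -600 bp stand below them.

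Among the nearest were the peaks of F42A6.6, 1 bp downstream of its start, with signals of 47.4 and 36.2 in replicates 1 and 2, and of C02B8.7, 3 bp upstream with 36.7 and 20.2. At the far limit, the summit of ift-43, an intraflagellar transport gene, was 998 bp upstream of its start (signal 140.7), in an intron of another gene. The first peak beyond the limit was 1002 bp upstream of let-711 (70.0). At the downstream limit, the summit of tos-1 was 199 bp inside (64.6), and the first excluded was 205 bp inside rps-21 (65.2). Of peaks kept despite an RNA gene nearby, the closest was that of snrp-200, a splicing helicase gene, 261 bp from an RNA gene (64.1). The farthest of those left out was that of kvs-3 at 141 bp (9.0).

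An exon of the gene itself held 71 summits (33%, interval 26.8 to 39.7), against 17.2% of window positions. Summits in an intron of the gene itself numbered 22 (10.2%, interval 6.52 to 15.1), against 17% of window positions. Another gene's exon held 22 (10.2%) against 12.6%, among them that of D2096.7. Another gene's intron held 9 (4.19%) against 6.32%, among them that of ift-43. Outside protein-coding genes lay 91 (42.3%, interval 35.6 to 49.2), against 46.8% of window positions. Of the annotated RNA classes that the rule did not remove, ncRNA genes lay within 200 bp of 9 summits, among them those of wwp-1, dnj-13 and nhl-2, and piRNA genes lay near 2. Both counts stand without a background share beside them and were not tested.

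Shares of promoter peaks and of genes differed over the 6 chromosomes. The X chromosome had 14 (6.51%), against 13.7% of protein-coding genes, and chromosome V had 34 (15.8%) against 25%. Chromosome IV had 52 (24.2%) against 16.4%, and chromosomes I and III had 41 (19.1%) and 38 (17.7%) against 14.4% and 13.2%. On chromosome X the promoter peaks were 11.6% of the listed peaks, and on chromosome IV 37.4%. Within chromosomes, 54.4% lay in the central 50% of the length, against 55.3% of protein-coding genes and 49.3% of other listed peaks. Genes with a promoter peak had a shorter space upstream: the distance from the farthest upstream start to the next protein-coding gene had a median of 704 bp, against 1160 bp for all genes. In 75 of 223 genes (33.6%) that neighbour was on the same strand within 500 bp, the arrangement of genes in operons, against 18.1% of all genes.

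**Figure D2:**
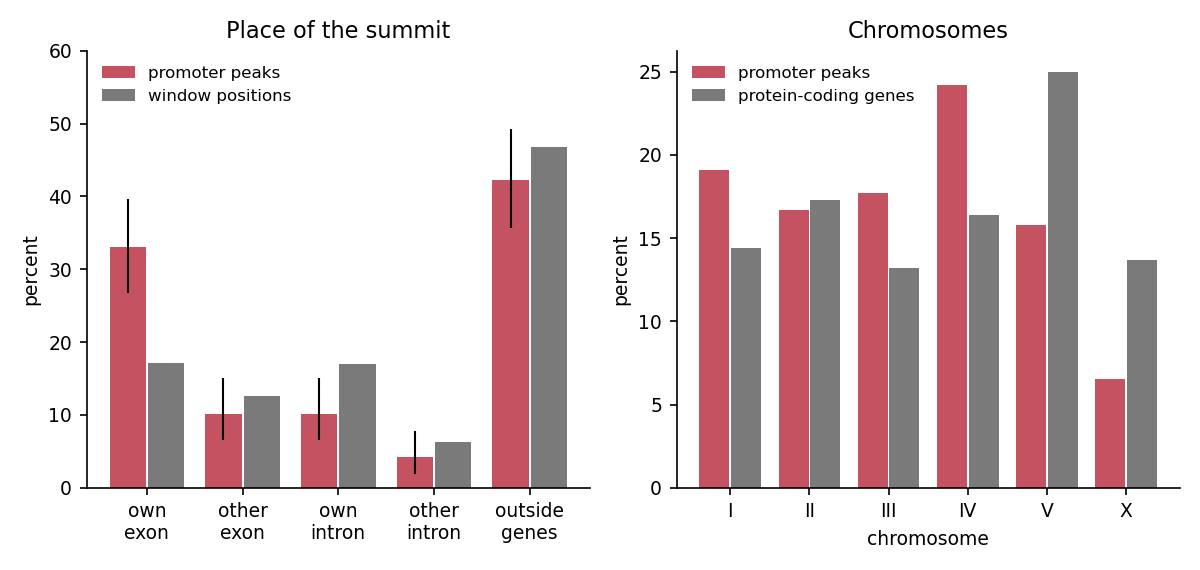
Percent of summits by place (left) for the 215 promoter peaks (red, with 95% exact intervals for counting error) and window positions (grey), and percent by chromosome (right) for promoter peaks (red) and protein-coding genes (grey). Exons of the gene itself held 33% of summits against 17.2% of window positions, and chromosome X held 6.51% of promoter peaks against 13.7% of genes.

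Head-to-head promoters were about as frequent as the windows themselves give. They held 20 of the 215 summits (9.3%, interval 5.78 to 14), against 8.87% of window positions and 8.71% of candidate peaks kept by the rule, and 195 summits (90.7%) had starts on 1 strand alone. The starts of the pairs were 351 to 1443 bp apart (median 826), and 17 of 20 summits fell between them. In 12 of the 20 the peak was in the conservative list, with a median signal of 80.3, against 68.5 for the 109 single-strand conservative peaks. In the optimal list alone the order was the other way, with 58 for 8 head-to-head peaks and 59.5 for 86 single-strand peaks. Pairs with a chaperone gene made up 4 of the 20, a count without a background share beside it and not tested.

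The F44E5.4 and F44E5.5 pair had the strongest head-to-head peak, with replicate signals of 84.1 and 61.9, and the narrowest gap between starts. Its summit was 149 bp from one start and 202 bp from the other. Next came K01G5.10 and tasp-1, a taspase gene, with replicate signals of 70.9 and 59.8 and the summit 46 bp upstream of the nearest tasp-1 start. K11H12.8 and the ribosomal protein gene rpl-15 had 55 and 41.9, with the summit 378 bp upstream of rpl-15. R11A5.6 and pck-2, a phosphoenolpyruvate carboxykinase gene, had 45.2 and 39.6 in sequence that was 42.1% unique. At nhl-2, a TRIM-NHL gene, and tag-340 the replicates had 44.3 and 44.5. Replicate 1 was the higher at 4 of these 5 pairs.

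In signal, promoter peaks were absent from the very top of the conservative list but not from that of the optimal list alone. The signal is the authors' own value, has no stated unit and was compared only within a list. Conservative promoter peaks had a median of 69.2 (quartiles 63.1 and 81.5, range 27 to 146.1), against 71.7 for 269 conservative peaks outside the windows and away from RNA genes (64 and 82.6, up to 224.7) and 77.6 for 93 near RNA genes (up to 305.7). Promoter peaks numbered 0 of the 10 highest conservative peaks, 2 of the top 20, 10 of the top 50 and 22 of the top 100, where their share of the list was 25.1%. Among peaks in the optimal list alone they were 3 of the 10 highest, 4 of the top 20, 11 of the top 50 and 24 of the top 100, with a share of 28.8%, and the medians were 59.2 for promoter peaks and 59.7 for the 204 peaks outside windows. The highest IDR score, 1000, was held by 50 conservative promoter peaks (41.3%, interval 32.4 to 50.6) and by 194 of the 362 other conservative peaks (53.6%, interval 48.3 to 58.8). IDR is the irreproducible discovery rate, and its score is the authors' scaled log. In the conservative list a high score stands for a peak reproducible between replicates, though not every promoter peak there had a candidate in both. A candidate in each replicate was present at 119 conservative promoter peaks, and a conservative peak of ufbp-1 had one in replicate 2 alone. In the optimal list alone a high score need not stand for this, since rpl-35 had a score of 1000 without a candidate in replicate 2.

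**Figure D3:**
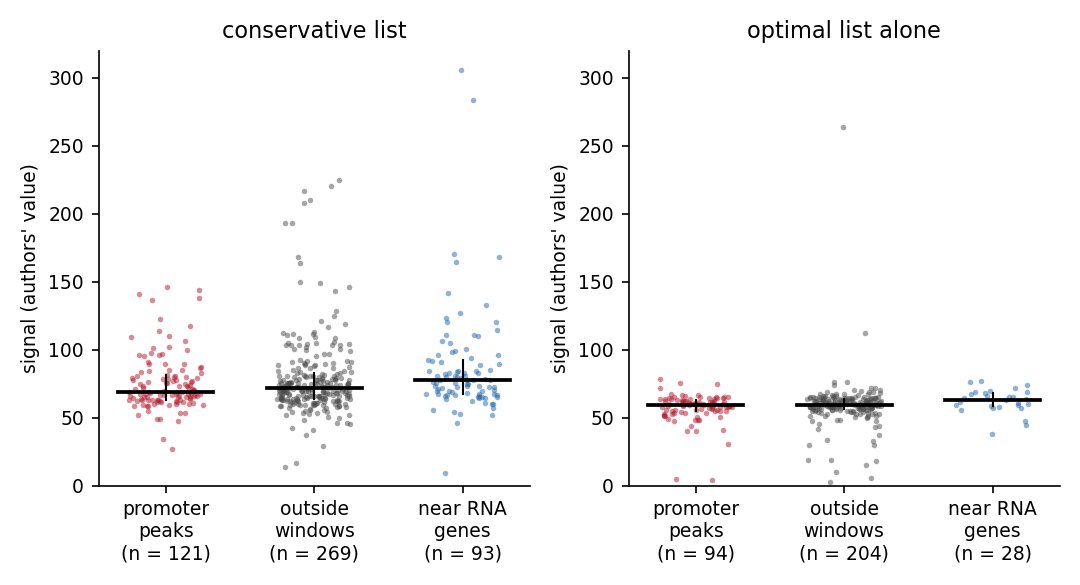
Signal of each peak (y axis, the authors' value without a unit) for promoter peaks (red), peaks outside the windows and away from RNA genes (grey) and peaks near RNA genes (blue), in the conservative list (left) and in the optimal list alone (right); bars give the median and the upright lines the quartiles. Conservative promoter peaks end at 146.1, below the highest peaks of both other classes.

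The strongest promoter peak was at rpl-3, a ribosomal protein gene (III:3867461-3867696, 275 bp upstream, signal 146.1), with 92.8 and 52.2 in replicates 1 and 2. After F44E5.4 and F44E5.5 (143.9) came ift-43 with 93.3 and 44.2, rpi-2 with 90.4 and 42.1, K01G5.10 and tasp-1, and D2096.7 with 85.4 and 43.2. In each of these peaks replicate 1 exceeded replicate 2. The pck-2 peak 26 bp downstream of a start (72.1 and 51.9) lay in sequence that was 38% unique, and that of eel-1, a HECT ubiquitin ligase gene, in sequence that was 69% unique (58.4 and 54.2). The peak of wwp-1, also a ubiquitin ligase gene, was 285 bp upstream with 71.5 and 40.1. Y62F5A.12 had 77.7 and 33.8 at 55.6% unique sequence, and rpa-2, a replication protein A subunit gene, had 71.7 and 35.2 at 34.5%. Last of the 12 strongest was F46F11.7 with 61.9 and 40.1.

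The strongest promoter peaks in the optimal list alone, which did not enter the conservative list of peaks reproducible between replicates, were the following. The cox-5A peak (signal 78.3) had 57.7 and 17 in replicates 1 and 2, and that of rpl-35 (75.2) had 62.5 in replicate 1 and no candidate in replicate 2. The histone gene his-64 had 46.0 and 22.8, and pst-2 had 52.5 and 12.7. The chemoreceptor gene srh-87 had 49.7 and 18.2, and Y17G9B.5 and rpl-20 had 43 and 21.9. Replicate 1 was the higher in each of the 5 with a candidate in both replicates.

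Replicate 1 was the higher at most promoter peaks, as at the other listed peaks. A candidate peak was present in both replicates at 206 of the 215 (95.8%, as for 95.8% of all listed peaks), in replicate 1 alone at 7, in replicate 2 alone at 1 (ufbp-1) and in neither at 1 (cutl-20). The median ratio of replicate 1 to replicate 2 was 1.27 (quartiles 1.01 and 1.64), against 1.28 at 451 other listed peaks. These libraries were not scaled to each other and their depth is unknown, so differences in depth and in binding cannot be told apart. Over the 206 peaks Spearman's rho of the log2 signals was 0.03 (Pearson's r 0.19), over the 119 conservative ones 0.15 (0.34) and over the 87 in the optimal list alone -0.61 (-0.53), all points coming from the same 2 libraries and from peaks that had passed the authors' thresholds. The listed signal was close to the sum of the replicate signals, with a median ratio of 0.993 at promoter peaks and 0.994 at other listed peaks. Conservative promoter peaks had medians of 39.5 and 32.5 in replicates 1 and 2 (n = 119), and those in the optimal list alone 33.2 and 23.6 (n = 87).

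Few promoter peaks passed the threshold in a replicate on its own. Replicate 1's own list overlapped 34 of the 215 (15.8%), against 18.4% of all listed peaks, and replicate 2's own list overlapped 18 (8.37%) against 10.6%. Both lists overlapped 10 (4.65%, interval 2.25 to 8.39) against 6.06% of all listed peaks, and neither overlapped 173 (80.5%). The 10 belonged to rpl-3, F44E5.4 and F44E5.5, ift-43, K01G5.10 and tasp-1, pck-2, eel-1, wwp-1, rla-1, Y43B11AR.3 and taf-11.3. All 10 were conservative peaks. These shares were near those of all listed peaks.

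**Figure D4:**
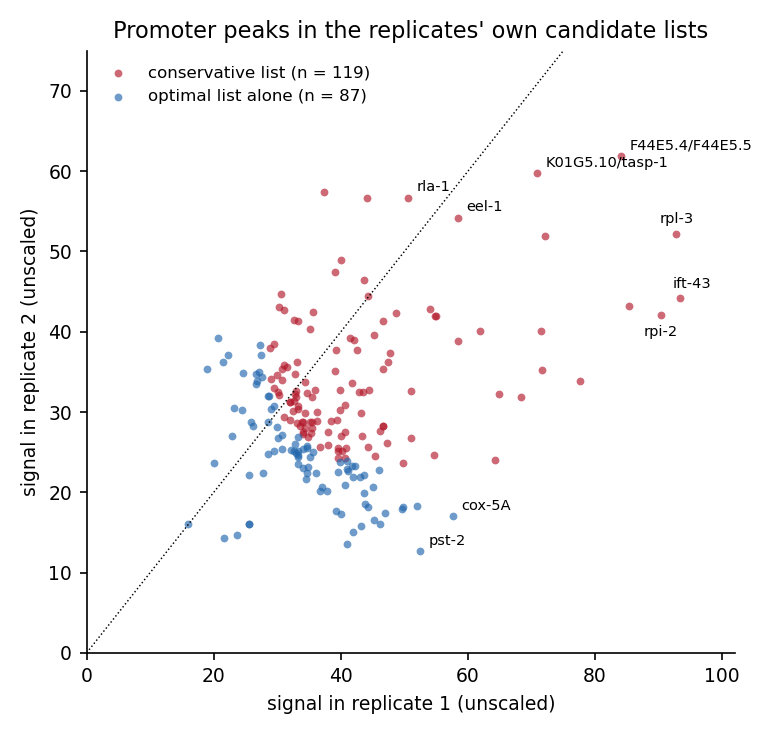
Signal of the promoter peaks in replicate 1 (x axis) and replicate 2 (y axis), unscaled and without a unit, for the conservative list (red, n = 119) and the optimal list alone (blue, n = 87), with the dotted line where both are equal. Most points lie below the line, 92 of the conservative peaks and 63 of those in the optimal list alone. The named peaks at the right, such as rpl-3 and ift-43, have the highest signal in replicate 1.

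The windows with a promoter peak belonged to 223 of 19973 protein-coding genes (1.12%). A single gene was assigned to 191 peaks and a pair of genes to 24, and 15 genes had more than 1 peak. The pck-2 gene had 3, in sequence that was 42.1%, 38% and 0% unique, so the gene named there is uncertain. The polyubiquitin gene ubq-1 and the gene lin-66 had 2 each.

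Heat shock protein genes and cytosolic ribosomal protein genes had the highest shares with a promoter peak among 21 gene lists. The lists were chosen with earlier results of these data known, and their shares were not tested. Cytosolic ribosomal protein genes had a peak at 7 of 82 (8.54%), against 1.12% of all protein-coding genes. Besides rpl-3, rpl-15, rpl-35 and rpl-20 above, these were rps-24 with 68.3 and 31.9 in replicates 1 and 2, rla-1, a ribosomal stalk protein gene, with 50.6 and 56.7, and rps-16 with 48.6 and 42.3. The rla-1 and rps-16 summits lay 74 and 58 bp downstream of the start and the others 275 to 470 bp upstream, and the rps-24 sequence was 60.2% unique. Mitochondrial ribosomal protein genes had 2 of 70 (2.86%), mrps-2 with 30.7 and 27.1 and mrpl-32 with 33.2 and 24.6. Among translation factors and tRNA synthetases, 1 of 71 had a peak (1.41%), the arginyl-tRNA synthetase gene rars-1.

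Heat shock protein genes had a peak at 7 of 54 (13%), the highest share of the 21 lists. In this count F44E5.4 and F44E5.5 both rest on the same peak. Besides F44E5.4 and F44E5.5, dnj-13, a J-domain co-chaperone gene that shares its promoter with F54D5.9, had 47.7 and 37.4 in replicates 1 and 2. The gene hsp-90, which shares its promoter with C47E8.4, had 44.4 and 32.8, and dnj-28, with supr-1, had 39.5 and 24.3. The endoplasmic reticulum Hsp70 genes hsp-4 and hsp-3 had 35.2 and 24.4, and 28.5 and 24.8. The genes other than F44E5.4 and F44E5.5 had lower signals in both replicates than that pair.

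General transcription genes had a peak at 4 of 60 (6.67%): the TFIID genes taf-11.3 (58.4 and 38.9 in replicates 1 and 2) and taf-9 (33.1 and 28.6), and the Mediator genes mdt-17 (39.5 and 25.5) and mdt-6 (41.9 and 15). Histone genes had 5 of 80 (6.25%). Beside his-64, described above, his-63 had 54.7 and 24.7, his-68 had 42.9 and 32.5, his-59 had 32.8 and 32.2, and his-60 had 31.5 and 35.6, with summits 486 to 863 bp upstream. The his-63 and his-64 summits lay close together (IV:11407496 and IV:11406253), as did those of his-59 and his-60 (IV:7488249 and IV:7487992 are the starts, IV:7487763 and IV:7488812 the summits). The genes of each pair point away from each other, but none of these summits lay between their starts. Each lay beyond the start of the other gene. The his-59 and his-68 summits lay in an exon of another gene. Oxidative phosphorylation genes had 4 of 66 (6.06%). Beside cox-5A they were the complex I genes nduf-2.2 (40.0 and 17.3) and nduc-2 (29.4 and 25.1), and the cytochrome c gene cyc-2.1 (29.0 and 34.1).

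**Figure D5:**
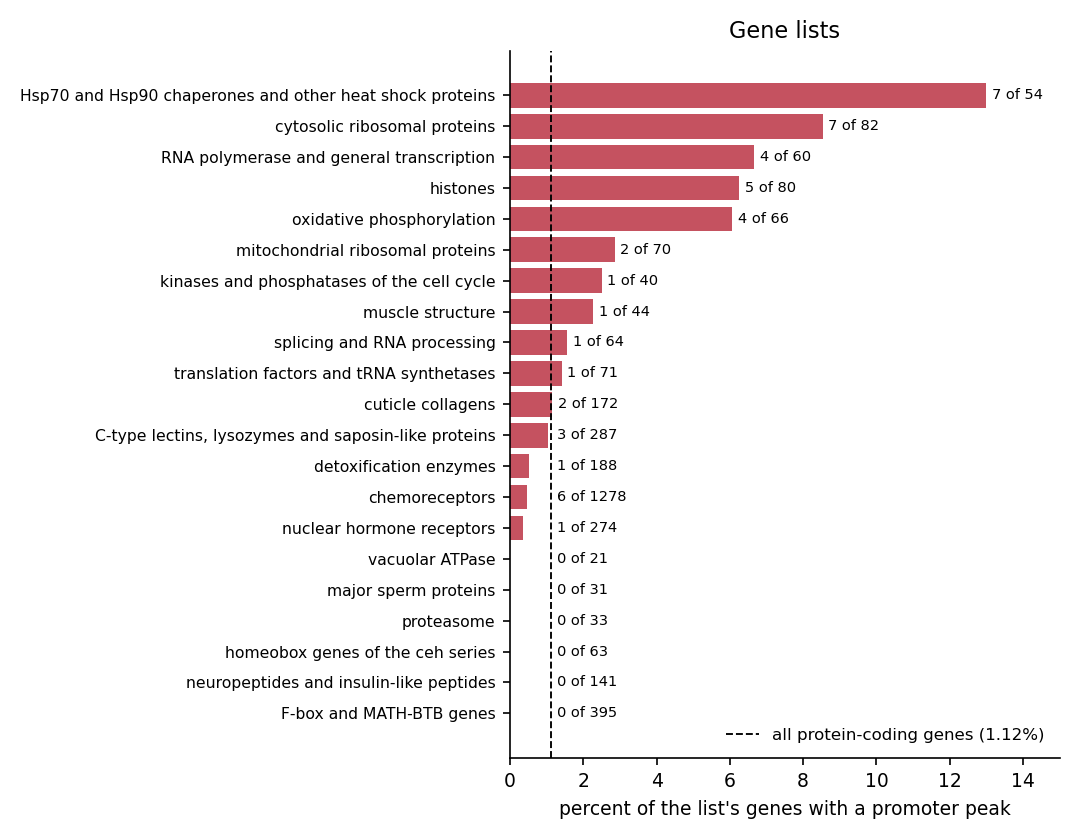
Percent of the genes of each of 21 lists with a promoter peak (x axis), with the number of genes beside each bar and the dashed line at the 1.12% of all protein-coding genes. Heat shock proteins (13%, with F44E5.4 and F44E5.5 counted from the same peak) and cytosolic ribosomal proteins (8.54%) are at the top, and 6 lists have no peak.

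Large gene families of sensing and defence had a peak about as often as all protein-coding genes or less often, in shares that were not tested. Chemoreceptor genes had a peak at 6 of 1278 (0.469%), against 1.12% of all genes, and nuclear hormone receptors at 1 of 274 (0.365%), nhr-71 with 44.3 and 18.2 in replicates 1 and 2. Beside srh-87, the chemoreceptor genes named by signal were srh-246 (39.1 and 47.4, sequence 7.6% unique), srbc-58 (36.3 and 30.0), srw-56 (27.3 and 38.3) and srw-60 (33.2 and 26.9). C-type lectins, lysozymes and saposin-like proteins had 3 of 287 (1.05%), clec-206, clec-196 and clec-132, and detoxification enzymes had 1 of 188 (0.532%), ugt-63. Cuticle collagens had 2 of 172 (1.16%), col-142 with 30.1 and 32.5, and col-52 with 54.1 and 42.8 in sequence that was 5.26% unique.

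Of the remaining lists, splicing and RNA processing genes had 1 of 64 (1.56%, mog-4), muscle structure genes 1 of 44 (2.27%, the perlecan gene unc-52) and cell cycle genes 1 of 40 (2.5%), which was cdc-48.1, the p97 ATPase gene shown above. The 6 lists without a promoter peak were F-box and MATH-BTB genes (0 of 395, which allows up to 0.759%), neuropeptides and insulin-like peptides (0 of 141, up to 2.13%), the ceh homeobox genes (0 of 63, up to 4.76%), the proteasome (0 of 33, up to 9.09%), major sperm proteins (0 of 31, up to 9.68%) and the vacuolar ATPase (0 of 21, up to 14.3%). For the ceh homeobox genes and the last 3 a share several times the background of 1.12% could not have been told from 0. The limit for neuropeptides and insulin-like peptides was also above that background. The ceh-58 gene itself had 0 listed peaks and 0 candidate peaks between replicates in its window.

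Under the same rule, 26.7% of the 105945 candidate peaks between replicates would be promoter peaks, against the 26.6% of listed peaks, a difference smaller than the interval of the listed share. Of candidates in a promoter window, 7 with an IDR score of 830, the lowest in the lists, or more overlapped no listed peak. Below 830 the highest score of a candidate was 827, at vgln-1 (signal 63.8), against 831 at dnj-28 (64.9) and F32D8.13 (50.6), the lowest of the promoter peaks.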

How the data were processed

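Anti-GFP ChIP-seq of 2 biological replicates in 1 group was analysed from the peak lists the authors deposited on assembly ce11, per the labels. The conservative list held 483 peaks, the optimal list 732, and the replicates' own lists 156 and 92. How reads were aligned and peaks called is not given in the sources used here. Also deposited by the authors were an IDR score and a signal value per peak, per the file layout, and a −log10 q-value that entered no result. That value was low, with 1.23 at rpi-2, 1.18 at rpl-3 and 0.155 at col-142, and a low value stands for a high q-value. Peaks are called strong here by their signal alone. The depth behind the signal values is unknown. The rule was applied with Ensembl release 115 (WBcel235), taking protein-coding transcripts only (29304 distinct starts in 19973 genes). Peaks overlapped at 1 bp or more. A replicate's signal is the highest among its own overlapping candidates. Window positions were taken every 25 bp from the same windows, away from the 1087 RNA genes. Motif shares were weighted over bins of 5% GC content. Limits for a count of 0 are 3 counts. The distance part of the rule was checked on made-up summits placed at known distances from annotated starts. The limit for RNA genes and the joining of the lists were not checked in this way. Where labels do not say how the replicates were grown, their spread may be technical.

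The members, gene lists, motifs and naming rule were chosen with earlier results of these data known. Named are the 12 strongest conservative peaks, the 6 strongest in the optimal list alone and the 5 strongest head-to-head peaks. Also named are up to 5 per gene list, the 3 nearest to a start, those at each limit, and ceh-58. Of the 3 nearest to a start, 1 is not reported here. Other genes and the 8-base words were named after their values were seen. The software was Python 3.11.15 with pandas 2.3.3, numpy 2.4.6, matplotlib 3.10.9 and scipy 1.17.1.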

Additional observations from a re-analysis of the deposited data

How the results depend on the processing

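Relative to the 215 promoter peaks, the conservative list alone gave 56.3% of that number, the highest IDR score 29.8% (64 peaks), the narrower window (500 bp upstream to 100 bp downstream) 62.8% (135) and the wider one (2000 bp upstream to 500 bp downstream) 166.5% (358). With 1 replicate left out, that is with the other replicate's own list, it was 8.37% to 17.7% (18 to 38). The share of listed peaks (26.6%) was 16.7% and 44.3% in those windows, 21.4% with the 5′-most start of each gene, 33.3% in fully unique sequence, 21.5% at the highest score and 19.6% to 24.4% with 1 replicate left out. The median distance was -112 bp and -297.5 bp in the narrower and wider windows, whose ends set it. Head-to-head promoters (9.3%) were 17.2% at the highest score, 23.2% in the wider window and 13.2% to 16.7% with 1 replicate left out. Ribosomal protein genes (7) were 17 in the wider window and 2 to 4 with 1 replicate left out, TAATTA (4.19%) was 1.56% at the highest score and 0% to 5.56%, the share in both replicate lists (4.65%) was 15.6% and 26.3% to 50%, and the median signal (69.2) was 85 at the highest score, 63.5 over the whole optimal list, conservative peaks in it included, and 46.8 to 53.6 on the replicates' own scales. Apart from the window ends and the smaller peak sets, the cause was not tested. Of 90 values under alternatives, 61 stayed within the main interval or, for counts, within 1.5 times, and starts of every transcript, added after the data were seen, gave 216 peaks. Unknown depth limits the signal values. No paired analysis was possible because there is 1 group.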
